A study of Rattus norvegicus with 15 samples.

Results

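The 29 genes described here encode enzymes, carriers and regulators of mitochondrial and peroxisomal fatty acid oxidation. They were found by their gene names among the 34357 genes with an identifier in the table. Of these, 17 encode mitochondrial proteins, 9 peroxisomal proteins, 2 proteins of both organelles (Eci2 and Crat) and 1 the nuclear receptor Ppara.

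Fatty acids are activated to acyl-CoA, carried into mitochondria as carnitine esters, and shortened from the carboxyl end by repeated cycles of dehydrogenation, hydration, dehydrogenation and thiolytic cleavage. Peroxisomes run a parallel chain on very long and branched substrates, with oxidases in place of the dehydrogenases that feed the respiratory chain. Proximal tubule cells of the kidney cortex are known to draw most of their energy from this pathway, and Ppara is the receptor best known for switching its genes on.

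RNA-seq of total RNA was performed on 15 libraries from Dahl salt-sensitive (SS) rats, to find genes affected by the loss of a noncoding interval. The interval spans 30.4 kb on chr2:60825801-60856216 (rn7), beside Npr3, which encodes a natriuretic peptide clearance receptor, and is orthologous to a human blood pressure haplotype region. The groups were 4 kidney cortices with the deletion, 3 wild-type kidney cortices, 4 mesenteric arteries with the deletion and 4 wild-type mesenteric arteries, all from rats that the sample titles call male. Ages, diets and the number of founder lines are not given in the sources used here. Values are FPKM, fragments scaled by gene length and library size as deposited, and differences are on the scale of log2(FPKM + 0.5). Ratios between groups or tissues are these differences turned back from log2, so the added 0.5 shrinks those of low genes.

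No identified gene overlaps the deleted interval, so none gives a check of genotype. Npr3 ranged from 4.39 to 10.7 FPKM in deletion kidneys and from 5.01 to 8.52 in wild-type kidneys, and from 26.5 to 42.6 FPKM in deletion arteries and from 19.1 to 30.7 in wild-type arteries. The library labelled kidney wild-type 3 went against its label in sex-linked genes, with Xist at 81.1 FPKM against 0.0989 to 1.3 in the other libraries, and with the Y-linked Eif2s3y and Kdm5d listed at 0 FPKM. The kidney results that it moves are therefore given with and without it. The tissue labels were borne out by defining markers, since the phosphate transporter Slc34a1 averaged 1039 ± 111 FPKM in kidneys and 0.343 ± 0.378 in arteries (SD, n = 7 and 8), and smooth muscle actin Acta2 11 ± 4.04 and 796 ± 234 FPKM. The arteries also carried fat, with the adipocyte hormone Adipoq at 2.86 ± 0.672 FPKM in kidneys and 716 ± 184 in arteries. Artery wild-type 4 stood apart in its erythrocyte markers, which summed to 104945 FPKM against 3585 to 33474 in the other arteries.

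The members were expressed at higher levels in kidney cortex than in mesenteric artery. The 17 mitochondrial members summed to 1096, 1664 and 1779 FPKM (lowest, median and highest library) in kidneys, against 544, 619.7 and 787 FPKM in arteries. The 9 peroxisomal members summed to 358, 561 and 596 FPKM in kidneys, against 139.6, 158 and 214 FPKM in arteries. Neither sum overlapped between the tissues. The peroxisomal sum was 0.316 to 0.349 of the mitochondrial sum in kidneys and 0.24 to 0.276 of it in arteries. That gap rested on Decr2: without it the ratio was 0.251 to 0.266 in kidneys and 0.236 to 0.273 in arteries, and the tissues overlapped.

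In limma's test over all 16856 genes, 28 of 29 members were called higher in kidney and 0 lower, at an adjusted p under 0.05. Over all genes 77% were called, 35.2% higher and 41.8% lower. The median difference was 1.22 over the mitochondrial members and 1.82 over the peroxisomal members, against -0.11 over all genes. All 7 kidneys lay above all 8 arteries for 21 of 29 members, 11 of 17 mitochondrial and 7 of 9 peroxisomal, and 0 lay the other way, against 24.4% and 25.5% of all genes. In whole tissue, more cells of a type and more RNA per cell cannot be told apart.

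**Figure D1:**
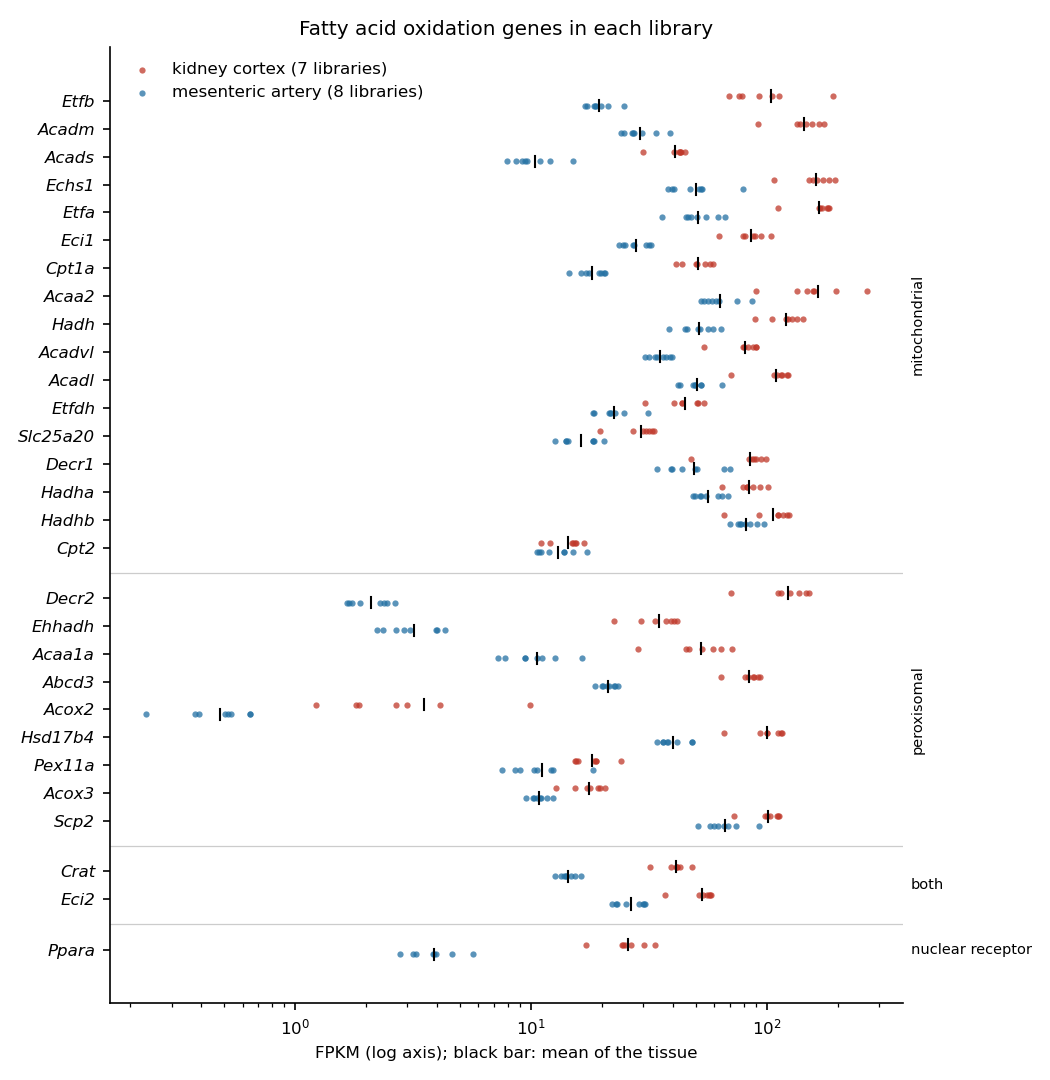
FPKM of each of the 29 members (rows, grouped by organelle and sorted by the tissue difference) in the 7 kidney cortex and 8 mesenteric artery libraries, on a log axis. Each point is a library and each black bar the mean of a tissue. Decr2 lies farthest apart between the tissues and the points of Cpt2 and Hadhb overlap.

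Of the carnitine shuttle genes, Cpt1a and Slc25a20 were called higher in kidney and Cpt2 was not. Cpt1a (chr1:200564634-200627059 on rn7, plus strand), the outer-membrane carnitine palmitoyltransferase that controls entry and the form typical of liver, had 41.3, 50.5 and 59 FPKM (lowest, median and highest) in kidneys, against 14.5, 18.5 and 20.7 FPKM in arteries. Every kidney exceeded every artery, and the difference was 1.45 ± 0.10 (SE; adjusted p = 1.8e-09). Slc25a20, the carrier that swaps acylcarnitine for carnitine across the inner membrane, averaged 29.3 ± 4.73 FPKM in kidneys and 16.4 ± 2.85 in arteries (SD), a difference of 0.83 with 1 kidney inside the range of the arteries. Cpt2, the inner-membrane transferase that returns the acyl group to CoA, was the 1 member not called. It averaged 14.4 ± 2.07 FPKM in kidneys and 13 ± 2.36 in arteries, a ratio of 1.11 (95% confidence interval 0.924 to 1.32; adjusted p = 0.286). Outside the member list, the muscle form Cpt1b ran the other way, at 1.43 to 2.96 FPKM in kidneys and 3.89 to 5.74 in arteries. The ratio of Cpt1a to Cpt1b was 19.4 to 38.2 in kidneys and 2.86 to 5.33 in arteries.

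The acyl-CoA dehydrogenases open each cycle, and each prefers a chain length. The difference was 1.19 ± 0.10 for Acadvl (very long chains), 1.10 ± 0.13 for Acadl (long chains), 2.29 ± 0.12 for Acadm (medium chains) and 1.96 ± 0.10 for Acads (short chains), all with SE. Acadm had 92, 147 and 175 FPKM in kidneys, against 24.2, 27.3 and 39 FPKM in arteries, a ratio of 4.9 (95% confidence interval 4.08 to 5.87; adjusted p = 8.7e-11). Acadl averaged 109 ± 17.9 FPKM in kidneys and 50.5 ± 6.99 in arteries. The order of these enzymes therefore differed between the tissues: Acadm stood at 1.13 to 1.55 times Acadl in kidneys and at 0.457 to 0.738 times Acadl in arteries, with no overlap. Acadvl averaged 80.9 ± 12.4 FPKM in kidneys and 35.3 ± 3.34 in arteries. Acads averaged 41 ± 5.08 FPKM in kidneys and 10.4 ± 2.29 in arteries, so it was the lowest of these enzymes in either tissue.

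The promoter of Acadvl is shown because it holds the closest match among the members to a direct repeat of AGGTCA with 1 base of any kind between the copies, the element bound by receptor pairs that include Ppara (capitals mark the match, 1 base apart from the motif; RefSeq, GRCr8, chr10:55236656-55236955, minus strand).
Acadvl: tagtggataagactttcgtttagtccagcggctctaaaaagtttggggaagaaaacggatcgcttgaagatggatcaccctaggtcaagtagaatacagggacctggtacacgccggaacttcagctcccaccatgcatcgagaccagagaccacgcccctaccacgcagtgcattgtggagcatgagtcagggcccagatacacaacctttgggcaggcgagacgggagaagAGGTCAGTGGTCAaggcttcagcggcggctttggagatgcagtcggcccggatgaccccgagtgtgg

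The middle steps divided. Echs1 (chr1:194895036-194903863 on rn7, minus strand), the short-chain enoyl-CoA hydratase, had 107, 164 and 195 FPKM in kidneys, against 38.1, 49.6 and 79.6 FPKM in arteries, a ratio of 3.28 (95% confidence interval 2.74 to 3.92). Hadh, the short-chain hydroxyacyl-CoA dehydrogenase, averaged 121 ± 18 FPKM in kidneys and 51.6 ± 8.37 in arteries. Acaa2 (chr18:68345136-68373246, plus strand), the thiolase that releases acetyl-CoA, had 90.4, 157 and 267 FPKM in kidneys, against 52.6, 59.9 and 86.4 FPKM in arteries. For these 3 genes the tissues did not overlap, although the lowest kidney came close to the highest artery for Acaa2.

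Hadha and Hadhb, which encode the alpha and beta subunits of the trifunctional protein on the inner membrane for long chains, differed least among the mitochondrial members after Cpt2. Hadha averaged 84.6 ± 11.6 FPKM in kidneys and 56.7 ± 7.29 in arteries, a difference of 0.57 ± 0.11 (adjusted p = 0.00017). Hadhb averaged 107 ± 20.9 FPKM in kidneys and 81.9 ± 8.87 in arteries, a difference of 0.34 ± 0.13 (adjusted p = 0.0225). Libraries of the tissues overlapped for either gene. Hadhb had the highest mean of all members in arteries and the eighth highest in kidneys. The genes lie head to head, Hadha on the plus and Hadhb on the minus strand of chromosome 6, with 300 bases between them on rn7. Hadhb stood at 1.2 to 1.57 times Hadha in 14 libraries and at 0.824 times it in the library labelled kidney wild-type 3.

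The window before Hadha is shown because it is also that of Hadhb: their promoter windows, from 250 bases before to 50 after each start, share 200 bases (capitals, chr6:31907551-31907750; whole window RefSeq, GRCr8, chr6:31907551-31907850, plus strand).
Hadha: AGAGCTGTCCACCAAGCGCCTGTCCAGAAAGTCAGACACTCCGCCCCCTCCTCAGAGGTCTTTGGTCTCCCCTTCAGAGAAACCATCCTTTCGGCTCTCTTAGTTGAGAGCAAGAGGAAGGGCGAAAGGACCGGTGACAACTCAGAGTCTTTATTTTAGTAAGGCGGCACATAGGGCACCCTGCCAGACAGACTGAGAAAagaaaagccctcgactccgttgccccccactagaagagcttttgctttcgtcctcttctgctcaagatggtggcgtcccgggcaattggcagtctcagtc

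Unsaturated acids need further enzymes. Eci1, the isomerase that moves the double bond, averaged 85.5 ± 13.1 FPKM in kidneys and 27.8 ± 3.39 in arteries, a difference of 1.61 ± 0.10. Decr1, the mitochondrial dienoyl-CoA reductase, averaged 84.7 ± 17 FPKM in kidneys and 49.2 ± 12.8 in arteries, a difference of 0.81 ± 0.16, and its libraries overlapped between the tissues. Electrons leave the dehydrogenases through the electron transfer flavoprotein, made of Etfa and Etfb, and its ubiquinone oxidoreductase Etfdh. Etfa had 112, 172 and 183 FPKM in kidneys, against 36.2, 49.1 and 66.4 in arteries, and its mean was the highest of all members in kidneys. Etfb had 69.2, 92.7 and 192 FPKM in kidneys, against 17, 18.8 and 24.8 in arteries, a difference of 2.34 ± 0.17, close to the 2.29 of Acadm. The highest Etfb value was that of the library labelled kidney wild-type 3, without which Etfb had a difference of 2.15 and Acadm of 2.33. Etfdh averaged 44.9 ± 8.05 FPKM in kidneys and 22.6 ± 4.16 in arteries, and the lowest kidney fell inside the range of the arteries.

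Of the peroxisomal members, Decr2 and Ehhadh differed most. Decr2 (chr10:15104907-15113281 on rn7, minus strand), the peroxisomal dienoyl-CoA reductase, had 70.5, 126 and 151 FPKM in kidneys, against 1.66, 2.08 and 2.66 FPKM in arteries. That is a ratio of 47 (95% confidence interval 38 to 58.1; adjusted p = 1.1e-14). Decr2 stood at 1.16 to 1.7 times Decr1 in kidneys and at 0.0269 to 0.0676 times Decr1 in arteries, so the order of the reductases of the organelles was opposite in the tissues. Ehhadh (chr11:79241927-79275173, plus strand), the L-bifunctional hydratase and dehydrogenase, had 22.6, 37.4 and 41.7 FPKM in kidneys, against 2.23, 2.99 and 4.32 FPKM in arteries, a ratio of 9.64 (95% confidence interval 7.62 to 12.2). Hsd17b4, the D-bifunctional enzyme of the same steps, averaged 100.4 ± 17.3 FPKM in kidneys and 40.2 ± 5.45 in arteries, a ratio of 2.47. By mean level among the 29 members, Hsd17b4 ranked 11 and Ehhadh 23 in kidneys, while Hsd17b4 ranked 10 and Ehhadh 27 in arteries.

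The promoter of Decr2 is shown because it belongs to the member with the largest tissue difference (RefSeq, GRCr8, chr10:15617387-15617686, minus strand, no match to the motif with up to 2 mismatches).
Decr2: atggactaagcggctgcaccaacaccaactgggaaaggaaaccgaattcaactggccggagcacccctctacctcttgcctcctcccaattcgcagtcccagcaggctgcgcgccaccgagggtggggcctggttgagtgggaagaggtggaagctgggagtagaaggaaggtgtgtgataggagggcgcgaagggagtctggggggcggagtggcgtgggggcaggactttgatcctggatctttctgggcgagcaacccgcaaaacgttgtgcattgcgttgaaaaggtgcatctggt

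Acaa1a, a peroxisomal thiolase, averaged 52.8 ± 14.1 FPKM in kidneys and 10.6 ± 2.94 in arteries. Its close copy Acaa1b had 27.2 to 71.7 FPKM in kidneys and 0.0463 to 1.06 in arteries, and reads shared by the copies could have been split between them. The oxidases stand at the entry of the peroxisomal chain. Acox2, the oxidase of branched chains and bile acid intermediates, was the member with the lowest mean in either tissue, at 1.23, 2.67 and 9.89 FPKM in kidneys and 0.233, 0.513 and 0.646 FPKM in arteries. Its highest kidney was the library labelled wild-type 3, and its difference was 1.82 with that library and 1.46 without it. Acox3, another branched-chain oxidase, averaged 17.6 ± 2.73 FPKM in kidneys and 10.9 ± 0.896 in arteries. Abcd3, the membrane transporter for long and branched acyl-CoA, averaged 84.4 ± 10 FPKM in kidneys and 21.3 ± 1.56 in arteries, with no overlap. Pex11a (chr1:133680091-133687172 on rn7, minus strand), a factor for the growth and division of peroxisomes, averaged 18.2 ± 3.06 FPKM in kidneys and 11.1 ± 3.39 in arteries. Scp2, whose long form is a thiolase for branched chains and whose short form carries sterols, averaged 102 ± 13.9 FPKM in kidneys and 66.5 ± 12.8 in arteries. Pex11a and Scp2 were the peroxisomal members whose libraries overlapped between the tissues.

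Of the members of both organelles, Eci2, an enoyl-CoA isomerase, averaged 53 ± 7.42 FPKM in kidneys and 26.7 ± 3.56 in arteries, a difference of 0.98 ± 0.11. Crat, the carnitine acetyltransferase that buffers acetyl-CoA, averaged 41.1 ± 4.86 FPKM in kidneys and 14.3 ± 1.17 in arteries, a difference of 1.49 ± 0.08. Ppara had 17.1, 25.1 and 33.6 FPKM in kidneys, against 2.79, 3.86 and 5.67 FPKM in arteries, a ratio of 5.99 (95% confidence interval 4.87 to 7.36; adjusted p = 9.7e-11). None of these 3 overlapped between the tissues. Pparg, the fat cell member of the same receptor family, was at 0.232 to 0.674 FPKM in kidneys and 32.7 to 55.5 in arteries.

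Promoter windows were given for 26 of the 29 members (RefSeq, GRCr8). The direct repeat of AGGTCA with 1 free base (N) between the copies, searched on both strands, was found without mismatch in 0 of 26 members and in 0.0583% of 27457 promoters of the same length. With up to 2 mismatches in the copies it was found in 5 of 26 members (19.2%) and in 3.71% of all promoters, and with up to 3 in 38.5% and 24.4%. The 5 matches are set out to show how close each comes (capitals mark bases equal to the motif, and the free base is in lower case).
Acadvl: AGGTCAgtGGTCA
Crat: AGGaCAccGGTCA
Echs1: AGaTCAgAGGTCt
Etfa: AGGgCAaAGGTaA
Slc25a20: AGGTgAaAGGTCg
A match is a description of the letters in this window. Ehhadh, Decr2 and Ppara, with the largest tissue differences, had no match with up to 2 mismatches there.

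Genes around the members, from lists of the wider pathway, were compared between the tissues in the same fit. There, 35.2% of all genes were called higher in kidney and 41.8% lower. Of 15 tested genes of fatty acid uptake and activation, 8 were higher in kidney and 7 lower. The extremes were the medium-chain synthetase Acsm2 (difference 9.36, with 241 to 464 FPKM in kidneys and 0 to 0.21 in arteries) and the transporter Slc27a2 (7.55) on the kidney side. On the artery side they were the fat cell carrier Fabp4 (-7.25, with 1.68 to 6.7 FPKM in kidneys and 426 to 936 in arteries) and the lipase Lpl (-5.35). This list was split between the tissues.

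The counts of the other lists also stand beside 35.2% of all genes called higher and 41.8% lower. Of 19 genes listed as other mitochondrial acyl-CoA enzymes, 17 were higher in kidney, led by the carboxylase subunit Pccb (2.02) and the thioesterase Acot2 (1.99). The 2 lower ones were Cpt1c (-1.84) and Cpt1b (-1.10). Of 17 other peroxisomal enzymes and transporters, 12 were higher, led by Acaa1b (5.73) and the racemase Amacr (4.43). In that list 3 were lower, with the transporter Abcd2 (-5.46) at the bottom, opposite in direction to Abcd3. Of 15 peroxins, the proteins that build peroxisomes, 11 were higher, led by the import receptors Pex7 (1.68) and Pex5 (1.56), and 1 was lower, Pex19 (-0.75), while Pex3 had a difference of 0.08. Of 6 ketone body enzymes, 5 were higher, led by Bdh2 (3.24) and Bdh1 (2.67), with Oxct1 at 1.93. Of 16 regulators and receptor targets, 5 were higher, led by the coactivator Ppargc1a (3.78) and the receptor Esrra (2.10), and 9 were lower, led by Pparg (-5.50) and Angptl4 (-4.44).

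The tissue call of 4 members depended on the scaling. With every library set to the same FPKM sum, the median of all genes moved to -0.43 and the share of calls on the kidney side to 30.9%, against 45.7% in the deposited scale. Relative to the median of all genes, the mitochondrial members then lay 1.30 higher and the peroxisomal members 2.01 higher, against 1.33 and 1.93 in the deposited scale. The count called higher became 24 of 29, without Cpt2, Hadha, Hadhb, Scp2 and Acox3. Hadhb became -0.01 with equal sums and -0.18 with quantile normalization, and Cpt2 became -0.20 with equal sums. Within wild-type libraries alone 27 of 29 members were higher, and within deletion libraries alone 25. Without the library labelled kidney wild-type 3 the count stayed at 28, with a mitochondrial median of 1.25 and a peroxisomal median of 1.46. The shares of all genes called in these subsets of libraries are not given here, so their counts have no background beside them.

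In mesenteric arteries, no member was called changed by the deletion. Of the 28 members tested, 0 passed an adjusted p of 0.05 in limma, as did 0% of 16470 genes, and 5 had an unadjusted p under 0.05, all with higher values in deletion arteries, against 5.24% of all genes in either direction and 3.72% on the higher side. Acox2, at 0.504 to 0.646 FPKM in deletion arteries and 0.233 to 0.535 in wild-type arteries, had too low a mean to be tested. The difference was above 0 for 23 of 28 members, 13 of 17 mitochondrial and all 8 peroxisomal ones tested, against 59.7% of all genes. The median was 0.13 over the mitochondrial and 0.21 over the peroxisomal members, against 0.04 over all genes. The sums of the members by library show the spread behind these medians.

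**Figure D2:**
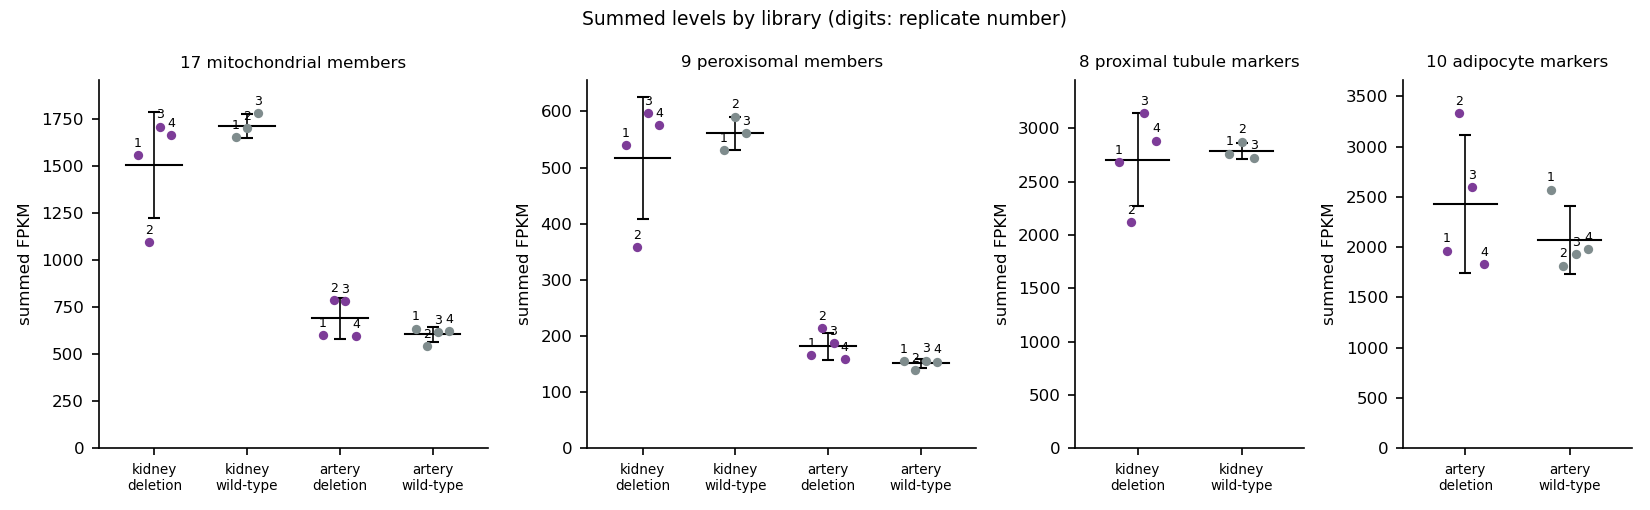
Summed FPKM of the 17 mitochondrial and 9 peroxisomal members in every library, beside the proximal tubule markers of the kidneys and the adipocyte markers of the arteries. Digits are replicate numbers, and bars are means with SD. Deletion kidney 2 is the lowest kidney in the first 3 panels, and deletion arteries 2 and 3 have the highest member sums among the arteries.

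The mitochondrial members summed to 600.3, 787, 781 and 594 FPKM in deletion arteries 1 to 4, against 635, 544, 617 and 622 FPKM in wild-type arteries 1 to 4. Deletion arteries 2 and 3 stood above every wild-type artery, and deletion arteries 1 and 4 lay among them. The peroxisomal members summed to 166, 214, 187 and 159 FPKM in deletion arteries, against 155, 139.6, 156 and 154 FPKM in wild-type arteries. All 4 deletion arteries were above all 4 wild-type arteries in this sum, the nearest pair being close. Deletion artery 3 was the highest library for 13 of 28 members and deletion artery 2 for 11, against 13.2% and 18.2% of all genes. Wild-type artery 2 was the lowest for 12, against 6.16% of all genes.

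The mitochondrial members with the smallest p were Echs1, Acads, Acadm, Acaa2 and Acadvl. Echs1 had 52.6, 79.6, 53.3 and 51.7 FPKM in deletion arteries, against 38.1, 39.8, 47.5 and 40.4 FPKM in wild-type arteries. Every deletion artery was above every wild-type artery, and the ratio was 1.41 (95% confidence interval 1.11 to 1.78; adjusted p = 0.893). Acads had 12.1, 15, 11 and 9.67 FPKM in deletion arteries, against 9.21, 7.96, 9.46 and 8.63 FPKM in wild-type arteries, again without overlap, at a ratio of 1.32 (1.07 to 1.63). Acadm had 27.5, 39, 33.9 and 29.7 FPKM in deletion arteries, against 24.2, 26.8, 24.9 and 27.1 FPKM in wild-type arteries, a ratio of 1.25 (1.04 to 1.5). Its lowest deletion artery was just above its highest wild-type artery.

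Acaa2 had 56.4, 86.4, 75.1 and 63 FPKM in deletion arteries, against 54.5, 52.6, 58.7 and 61.1 FPKM in wild-type arteries, a ratio of 1.22 (0.981 to 1.52). Acadvl had 37.3, 39.1, 39.6 and 34.4 FPKM in deletion arteries, against 36.4, 30.6, 33.5 and 31.6 FPKM in wild-type arteries, a ratio of 1.14 (0.982 to 1.32). For each of these genes 1 deletion artery lay inside the range of the wild-type arteries. Cpt1a averaged 17.7 ± 2.72 FPKM in deletion arteries and 18.8 ± 1.75 in wild-type arteries. The subunits of the electron carrier were uneven, with Etfa at 55.3 ± 10.7 FPKM in deletion arteries and 47.5 ± 8.23 in wild-type arteries, and Etfb at 19.5 ± 3.59 and 19.6 ± 1.23 FPKM.

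**Figure D3:**
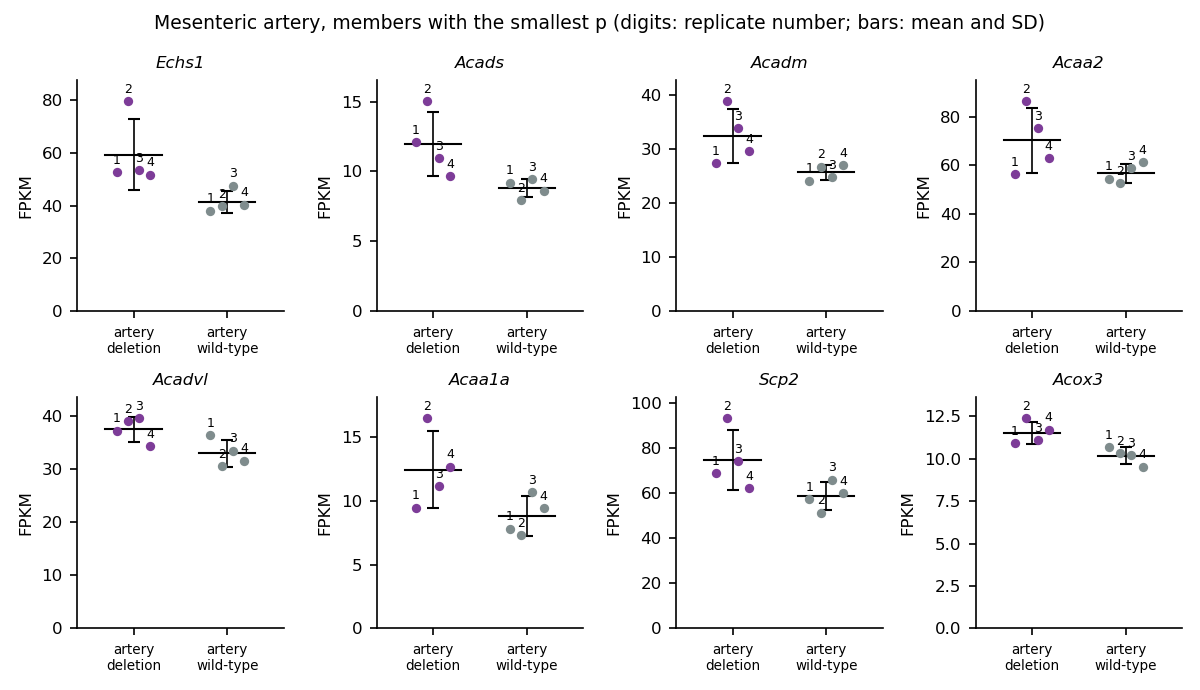
FPKM in each artery for the 5 mitochondrial and 3 peroxisomal members with the smallest p. Digits are replicate numbers, bars are means with SD, and each axis starts at 0. Deletion artery 2 is the highest library for Echs1, Acads, Acadm, Acaa2, Acaa1a, Scp2 and Acox3.

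Of the peroxisomal members, Acaa1a had 9.47, 16.5, 11.2 and 12.7 FPKM in deletion arteries, against 7.81, 7.29, 10.7 and 9.42 FPKM in wild-type arteries, a ratio of 1.38 (95% confidence interval 1.05 to 1.81). Scp2 had 68.6, 93.1, 74.1 and 62.1 FPKM in deletion arteries, against 57.3, 51.2, 65.9 and 59.9 FPKM in wild-type arteries, a ratio of 1.26 (1.01 to 1.57). Groups overlapped for these genes, by 1 deletion artery each. Acox3 had 10.9, 12.4, 11.1 and 11.7 FPKM in deletion arteries, against 10.7, 10.3, 10.2 and 9.53 FPKM in wild-type arteries, without overlap, but at a ratio of 1.12 (0.987 to 1.28). In all, 4 of 29 members had every deletion artery above every wild-type artery (Acads, Acadm, Echs1 and Acox3) and 0 the reverse, against 2.3% of all genes for the higher side and 0.953% for the lower.

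Eci2 averaged 26.4 ± 4.41 FPKM in deletion arteries and 26.9 ± 3.14 in wild-type arteries, and Crat 14.8 ± 1.32 and 13.8 ± 0.857 FPKM. Ppara had 5.67, 3.85, 4.63 and 3.27 FPKM in deletion arteries, against 3.95, 3.17, 2.79 and 3.87 FPKM in wild-type arteries, a ratio of 1.22 (0.924 to 1.61). The groups overlapped for all 3. Over the remaining members, the differences ranged from -0.09 (Cpt1a) to 0.33 (Pex11a). No gene of the surrounding pathway lists was called in the arteries.

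Adipocyte markers varied along with these values. The 10 markers, all with a mean of at least 0.5 FPKM in arteries, summed to 1964, 3329, 2596 and 1829 FPKM in deletion arteries, against 2571, 1817, 1931 and 1982 FPKM in wild-type arteries. Deletion arteries 2 and 3 were highest in the markers as in the member sums. Wild-type artery 1 had nearly the markers of deletion artery 3 with a lower mitochondrial sum. With the adipocyte markers as a covariate, the mitochondrial median was 0.00179 and the peroxisomal median 0.09, with 17 of 28 members above 0 and 0 with an unadjusted p under 0.05. In that fit Echs1 had a difference of 0.32 and Acaa1a of 0.33. All 10 markers were themselves above 0 in the deletion comparison (median 0.21), so this fit cannot separate fat content from the deletion. All 6 smooth muscle markers were above 0 too, and all 6 erythrocyte, 4 intestinal epithelium, 4 macrophage and 4 T and B cell markers were below 0. The sum of the brown fat markers was 35.3 to 62 FPKM in deletion arteries and 30.7 to 46.5 in wild-type arteries, with 2 of 6 markers at a mean of at least 0.5 FPKM, 1 listed at 0 in every artery, and Ucp1 at 0.0192 to 3.16 FPKM. The part of brown fat was not tested. Without deletion artery 3, 18 of 28 members were above 0 and the mitochondrial median was 0.06. That median was 0.07 without wild-type artery 2, and 0.18 and 0.21 without deletion arteries 1 and 4. Without wild-type artery 4, the library rich in erythrocyte markers, it was 0.12. The peroxisomal median was 0.13 without deletion artery 2 and 0.19 to 0.24 without any other artery.

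In kidney cortex, no member was called changed either. Of 29 members tested, 0 passed an adjusted p of 0.05, as did 0% of 15444 genes, and 1 had an unadjusted p under 0.05, against 1.41% of all genes (0.939% higher and 0.466% lower). The difference was below 0 for 23 of 29 members, against 39.8% of all genes, and the median was -0.15 over the mitochondrial and -0.11 over the peroxisomal members, against 0.04 over all genes. These values turned on 1 library. Without deletion kidney 2, 18 of 29 members were above 0, with medians of 0.0063 (mitochondrial) and 0.06 (peroxisomal). Without any other single kidney the medians stayed below 0, at -0.24 to -0.12 (mitochondrial) and -0.20 to -0.12 (peroxisomal), the lowest of both being without deletion kidney 3.

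**Figure D4:**
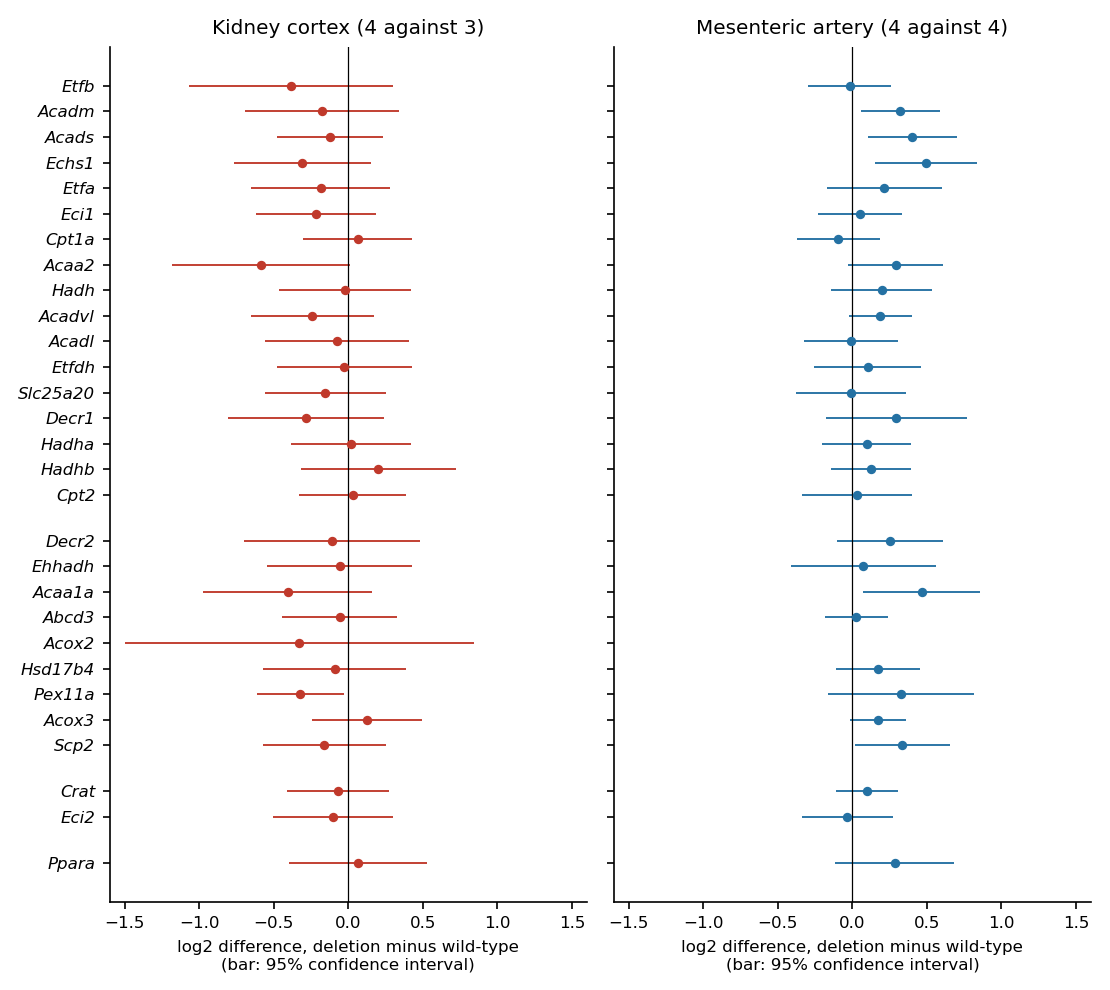
Log2 difference of deletion minus wild-type for each member, with its 95% confidence interval, in kidney cortex (left) and mesenteric artery (right). Intervals in kidney are wider and most points lie below 0, and most points in artery lie above 0. Acox2 was not tested in artery.

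Deletion kidney 2 had the lowest value of the 7 kidneys for 23 of 29 members, against 19.3% of all genes. It had the highest value for 0 members, against 37.7% of all genes. Its mitochondrial sum was 1096 FPKM, against 1558, 1708 and 1664 FPKM in the other deletion kidneys and 1653, 1701 and 1779 FPKM in the wild-type kidneys. Its peroxisomal sum was 358 FPKM, against 530.8 to 596 FPKM in the other 6 kidneys. By gene, its level relative to the median of the other kidneys ranged from 0.534 to 0.831 over the mitochondrial members, with a median of 0.647, and from 0.508 to 0.83 over the peroxisomal members, with a median of 0.661. Ppara was the member nearest to the other kidneys, at 0.979 of their median.

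Several sums of cell type markers in that library lay outside the range of the other kidneys, in either direction and some by little. Its 8 proximal tubule markers summed to 2120 FPKM, against 2680 to 3139 FPKM in the other kidneys. Its collecting duct markers summed to 141 FPKM, against 76.7 to 139 FPKM in the others, and its smooth muscle markers to 76.8 FPKM, against 37 to 51.7. Thick limb and distal tubule (1580 FPKM, the others up to 1562), endothelial (76.2, up to 72) and macrophage markers (23.4, up to 21.5) were narrowly highest. The intestinal epithelium list was lowest in this library, at 190 FPKM against 229 to 329 in the other kidneys. This list was far lower in arteries (0.0782 to 30 FPKM), so in kidneys it cannot be read as gut. The part of cell types in the low member levels of deletion kidney 2 was not tested. With the proximal tubule markers as a covariate, 13 of 29 members were above 0 and the medians were -0.07 and 0.0093.

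**Figure D5:**
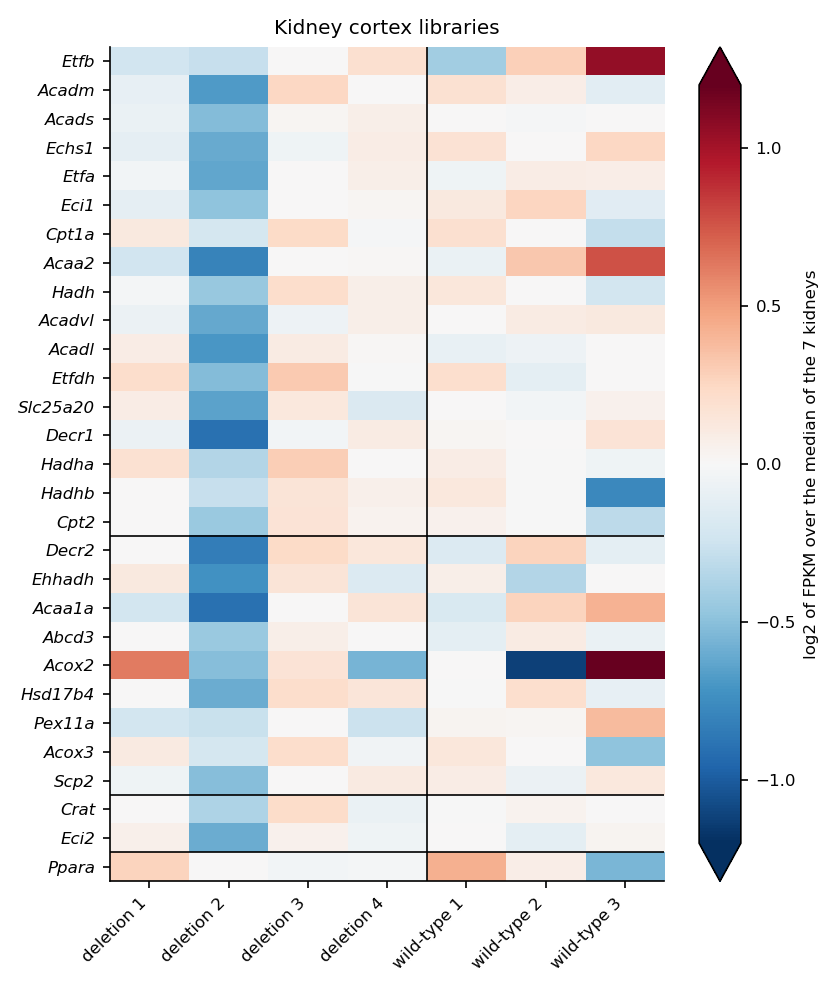
Each cell gives the log2 of a member's FPKM over its median in the 7 kidneys, for 4 deletion and 3 wild-type libraries. Values past the ends of the colour scale have the end colours. Deletion kidney 2 is low across nearly all rows, and the library labelled wild-type 3 is high for Acox2, Etfb and Acaa2 and low for Hadhb and Ppara.

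The library labelled wild-type 3 departed from the other kidneys in single members and in either direction. It had 9.89 FPKM of Acox2, against 1.23 to 4.11 FPKM in the other kidneys. Etfb stood at 192 FPKM against 69.2 to 113, and Acaa2 at 267 FPKM against 90.4 to 196. It was lowest for Hadhb, at 65.7 FPKM against 92.7 to 125, and for Ppara, at 17.1 FPKM against 24.4 to 33.6. Its ratio of Etfb to Etfa was 1.06, against 0.416 to 0.684 in the other kidneys. It was the highest library for 9 of 29 members and the lowest for 4, against 17.6% and 32.6% of all genes.

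The mitochondrial members with the smallest p in kidney were Acaa2, Echs1, Acadvl, Etfb and Decr1. Acaa2 had 134, 90.4, 157 and 159 FPKM in deletion kidneys, against 148, 196 and 267 FPKM in wild-type kidneys, a ratio of 0.667 (95% confidence interval 0.441 to 1.01; adjusted p = 0.999). Echs1 had 151, 107, 158 and 174 FPKM in deletion kidneys, against 184, 164 and 195 FPKM in wild-type kidneys, a ratio of 0.807 (0.587 to 1.11). For each of these genes, 1 or 2 deletion kidneys lay inside the range of the wild-type kidneys. Acadvl averaged 75.5 ± 14.5 FPKM in deletion kidneys and 88 ± 3.74 in wild-type kidneys. Etfb averaged 88.5 ± 13.5 FPKM in deletion kidneys and 125 ± 62.3 in wild-type kidneys. Decr1 averaged 78.6 ± 20.9 FPKM in deletion kidneys and 93 ± 5.81 in wild-type kidneys. Without the library labelled wild-type 3 the difference of Etfb was -0.014, against -0.38 with it. In the same way it was -0.25 against -0.31 for Echs1, -0.22 against -0.24 for Acadvl and -0.24 against -0.29 for Decr1.

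Pex11a had 15.9, 15.5, 18.6 and 15.5 FPKM in deletion kidneys, against 19, 18.9 and 24.1 FPKM in wild-type kidneys. It was the 1 member of 29 whose groups did not overlap, all deletion kidneys being lower, against 1.01% of all genes, and 1.54% of all genes were higher without overlap. Its ratio was 0.8 (95% confidence interval 0.654 to 0.978; adjusted p = 0.999). Without the library labelled wild-type 3 its difference was -0.21, against -0.32 with it, and its unadjusted p was no longer under 0.05. Acaa1a averaged 46.7 ± 13.3 FPKM in deletion kidneys and 60.8 ± 12.5 in wild-type kidneys, and Scp2 97.2 ± 16.9 and 108 ± 7.58 FPKM, both with overlapping groups. Without that library the difference was -0.28 for Acaa1a, against -0.41 with it, and -0.12 for Scp2, against -0.16.

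Eci2 averaged 51.7 ± 9.95 FPKM in deletion kidneys and 54.8 ± 2.91 in wild-type kidneys, and Crat 40.4 ± 6.73 and 42 ± 0.831 FPKM. Ppara had 30.2, 25.1, 24.4 and 24.6 FPKM in deletion kidneys, against 33.6, 26.5 and 17.1 FPKM in wild-type kidneys. Its difference was 0.06 with the library labelled wild-type 3 and -0.20 without it. Without that library 28 of 29 members were below 0, with medians of -0.12 for each organelle, 0 members had an unadjusted p under 0.05, and Acaa2 had a difference of -0.37. Without both that library and deletion kidney 2, 19 of 29 were above 0, with medians of 0.012 and 0.023. Over the remaining members, the differences ranged from -0.33 (Acox2) to 0.20 (Hadhb), and both ends turned sign without the library labelled wild-type 3, to 0.39 for Acox2 and -0.075 for Hadhb. No gene of the surrounding lists was called in kidney.

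The deletion effect in kidney minus that in artery was tested as an interaction over all 15 libraries. It was called for 0 of 29 members and 0% of 16856 genes, and 7 members had an unadjusted p under 0.05, all with a negative difference, against 4.39% of all genes (1.83% higher and 2.56% lower). The difference was below 0 for 26 of 29 members, against 49.6% of all genes. It was smallest in p for Echs1 (-0.80 ± 0.24, SE), Acaa2 (-0.87 ± 0.30) and Acaa1a (-0.87 ± 0.32), each with an adjusted p of 0.943. Eci2 had -0.07, Crat -0.17 and Ppara -0.22. For Echs1 the parts were a ratio of 0.807 in kidney and 1.41 in artery, from 7 and 8 libraries. Without deletion kidney 2 and the library labelled wild-type 3 together, 18 of 29 members were below 0 and 1 had an unadjusted p under 0.05.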

How the data were processed

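RNA-seq of 15 rat libraries was used. The deposited table gives 1 FPKM value per gene and library, computed by the authors before deposit with a tool not given in the sources used here. Per the submitters' processing notes, the tools included HISAT2 2.2.1, Trim Galore 0.6.2 and DESeq2 1.46.0, without roles, and the build was rn7. A deposited column of coverage, of no stated sample, was not used (1 column). Strand use in counting is not stated. Of 40694 rows, 6337 had no identifier and were left out. Whole reads could not be recovered from the low FPKM values, so the depth is unknown and no counting interval is given. 

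Values were taken as log2(FPKM + 0.5), which understates changes of low genes, and genes averaging 0.5 FPKM or more over the libraries compared were tested two-sided with limma 3.58.1 in R 4.3.3 (trend and robust moderation, Benjamini-Hochberg adjustment over all genes tested). The fits were tested on simulated data. The tissue contrast and the interaction came from 1 fit of 4 group means. Plots were drawn with matplotlib 3.10.9. No label says that libraries come from separate animals, so p-values measure only how far these libraries spread, which may be technical. In each deletion comparison the 5 mitochondrial and 3 peroxisomal members with the smallest p were named, with Eci2, Crat and Ppara, and for the interaction the 3 with the smallest p. From each surrounding list the 2 highest and 2 lowest tissue differences were named, except for some that are not reported here. Members and lists were chosen with earlier results of these data known. Alternatives changed the pseudocount, filter, scaling, moderation, weights, block, covariates and libraries. Promoters came from RefSeq (GRCr8) and were matched by symbol. Protein ends were planned and not run, since no protein table was given.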

Additional observations from a re-analysis of the deposited data

Results flagged for a closer look

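In groups of 4, a library was picked out when its gap to the nearest of the others exceeded 0.829 of the group's range. Of 102 group values of members, sums and ratios, 8 met this, and chance picks out about 1 in 20. In deletion kidneys, library 2 was low for Acadl (70.7 FPKM, the others 116 to 123), for Abcd3 (64.3 FPKM, the others 87.8 to 92.4) and for the peroxisomal sum over the mitochondrial sum (0.327, the others 0.346 to 0.349). Deletion kidney 3 was high for Pex11a, at 18.6 FPKM against 15.5 to 15.9 in the others. Deletion kidney 1 was high for Ppara, at 30.2 FPKM against 24.4 to 25.1. Deletion artery 2 was high for Echs1, at 79.6 FPKM against 51.7 to 53.3. Among wild-type arteries, library 3 was high for Decr2, at 2.38 FPKM against 1.66 to 1.75, and library 2 was low for the peroxisomal sum, at 139.6 FPKM against 154 to 156. The 3 wild-type kidneys were too few for this rule.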

How the results depend on the processing

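Under every alternative run, 0 members were called in either deletion comparison and in the interaction, and the tissue comparison called 24 to 29 of 29 members higher and 0 lower. The share of all genes called higher is not given for each alternative, so these tissue counts are not set against a background. The artery mitochondrial median fell to 0.00179 with the adipocyte covariate. The tissue mitochondrial median was 0.86 with equal sums and 0.77 with quantile normalization. The tissue peroxisomal median was 1.44 with a pseudocount of 1, 1.47 with array weights and 1.42 without kidney wild-type 3 and artery wild-type 4, and 1.46 to 1.93 when each library was left out. Signs turned for the tissue difference of Hadhb (-0.013 with equal sums, -0.18 with quantile normalization) and Cpt2 (-0.20 with equal sums). In arteries Eci2 was 0.0088 with equal sums and -0.11 to 0.042 when each library was left out. In kidneys, array weights gave Scp2 0.041 and Eci2 0.093. Leaving out each library gave kidney Eci2 -0.17 to 0.048, Crat -0.16 to 0.034 and Ppara -0.20 to 0.28. Without kidney wild-type 3 and deletion 2, a setting chosen after seeing the data, kidney Etfb was 0.051, Scp2 0.0098, Eci2 0.077, Crat 0.028 and Ppara -0.18. The interaction of Eci2 was 0.024 with quantile normalization, 0.20 with array weights, 0.11 without both kidneys, and -0.15 to 0.083 when each library was left out. The causes of these moves were not tested. Array weights called 282 of all genes in kidney, against 0, and 0 members, and their estimate stopped before its set tolerance. Within a tissue, same-numbered deletion and wild-type libraries correlated at 0.32, -0.34, 0.24 and 0.30 in artery and 0.08, -0.01 and 0.27 in kidney. Differently numbered ones ranged from -0.45 to 0.45 in artery and from -0.30 to 0.34 in kidney. Kidneys were not correlated with arteries of the same number, so whether the numbers pair samples across tissues was not tested. With the replicate block, 27 members were called higher in kidney than artery and Hadhb was 0.34 (adjusted p = 0.0540). Unknown depth limits the reading of low genes such as Acox2. The check of protein ends was not run.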

Other observations

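Genes beside the members in the pathway were also described in the deletion comparisons, where none was called. In arteries, all 15 peroxins and all 19 genes listed as other mitochondrial acyl-CoA enzymes had differences above 0, against 59.7% of all genes. Their medians were 0.15 and 0.21, against 0.04 over all genes. All 10 adipocyte markers (median 0.21) and all 6 smooth muscle markers (median 0.15) were above 0 too. In kidneys 12 of 15 peroxins and 16 of those 19 genes were below 0, against 39.8% of all genes. Each list had a median of -0.12, in the comparison that holds deletion kidney 2. Mlycd, a decarboxylase that removes the inhibitor of Cpt1a, had 0.34 in arteries and -0.34 in kidneys, named after its values were seen. The ketone body enzymes were split, with 3 of 6 above 0 in arteries and 2 of 6 in kidneys.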
